A study of Mus musculus with 6 samples.

Results

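DNA methylation was described at 39 marker genes of the lung epithelium in a cell type of another lineage, the endothelium of the mouse lung. The genes were taken as a list: 9 of alveolar type II cells, 4 of alveolar type I cells, 5 secreted or metabolic genes of the airway, 5 keratins, 7 genes of junctions and the cell surface, and 9 transcription and splicing factors. Each gene was matched by symbol to its RefSeq span on the mouse build mm10. All windows of 1000 bp that overlapped the span or the 5000 bp on either side were taken, which gave 1318 windows of the 1683697 with a value in every sample. No listed gene was left out, and no window fell into the surroundings of more than 1 of the 39 genes.

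The DNA came from endothelial cells sorted by flow cytometry from lungs of wild-type mice. The 3 samples titled mAdu were taken as the 8-month group and the 3 titled aged as the 18-month group. The series names these ages without tying them to the titles. Strain, sex and the sorting markers are not stated in the sources used here, nor is it stated whether the samples of a group are separate animals, so the spread between samples may be technical. No treatment or altered allele is named for either group.

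The lung epithelium lines the airways and the alveoli. Type II cells make surfactant, the lipid and protein film that lowers surface tension, while the flat type I cells form the surface for gas exchange. The airways hold secretory club cells, ciliated cells and basal cells. In mammalian DNA, methylation sits mostly on the cytosine of CG dinucleotides. Promoters rich in CG (CpG islands) are commonly free of methylation in most tissues, whether or not the gene is transcribed, while promoters poor in CG are commonly methylated where the gene is silent. Genes of developmental regulators often lie in wide unmethylated stretches, known as DNA methylation valleys, in cells that do not use them. Expression was not analysed here.

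Values are mean methylation levels in percent. Each gene was read over 4 regions: the locus (span with both flanks), the body (from 500 bp inside each edge, at least 3 windows), the end (1000 bp outside to 500 bp inside an edge, at whichever edge was less methylated over all 6 samples) and the start (the same width at the edge on the 5′ side of the gene's RefSeq strand). The strand was known for 25 of the 39 genes and the body had enough windows in 35. Read depth is unknown, so the precision of a value was judged from the spread between samples. Over the 6 samples a member's end spanned a median of 5.08 points, against 4.29 over the ends of all coding genes, and its body 2.34 against 2.09. Markers of the sorted cell type had low ends: the median over 20 endothelial genes was 19.1%, and 10 were under 20%. Of 17 endothelial bodies 3 were under 20% and 8 over 60%, with a median of 46.8%. Haematopoietic genes had medians of 64.8% at 16 ends and 71.8% at 13 bodies, and 15 mesenchymal genes 29.8% and 71.5%. Such a mean over sorted cells does not separate a part of the cells from a part of the alleles in each cell.

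Over most of their length the epithelial genes were methylated in lung endothelium about as much as other genes. The median body of the 35 members stood at 70.6% and the median locus of all 39 at 69.2%, against 73.3% and 71.5% for all coding genes on the autosomes. The median end was 38.5% in the members and 34.4% in all coding genes, and the median start 41.7% and 34.9%. Ends under 20% were found in 9 of the 39 members (23.1%), against 28.5% of all coding genes and 10 of the 20 endothelial genes. Ends over 60% were found in 12 members (30.8%), against 25.03% of all coding genes. A further list of 46 lung epithelial genes outside the 39 had a median end of 42.0% and a median body of 71.6%.

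The genes differed far more from each other than between samples, and the classes were spread over different ranges. Median ends were lowest in the factors, at 12.0%, followed by alveolar type II genes (23.2%), junction genes (29.5%), keratins (35.6%), alveolar type I genes (47.2%) and airway genes (60.2%). The range within a class was narrowest among the airway genes, from 52.1% to 76.7%. The order was not the same at starts, which were known for fewer genes. Median starts were 2.86% in 4 factors, 35.8% in 6 junction genes and 38.6% in 4 keratins. They were 42.6% in 6 alveolar type II genes, 56.5% in 3 alveolar type I genes and 64.9% in 2 airway genes. No test was made between classes, since the genes of a class are not replicates of it. Bodies were more alike: 30 of 35 (85.7%) stood above 60%, the same share as among the bodies of all coding genes (85.7%). The lowest were those of Nkx2-1, Foxa1 and Cldn7.

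**Figure D1:**
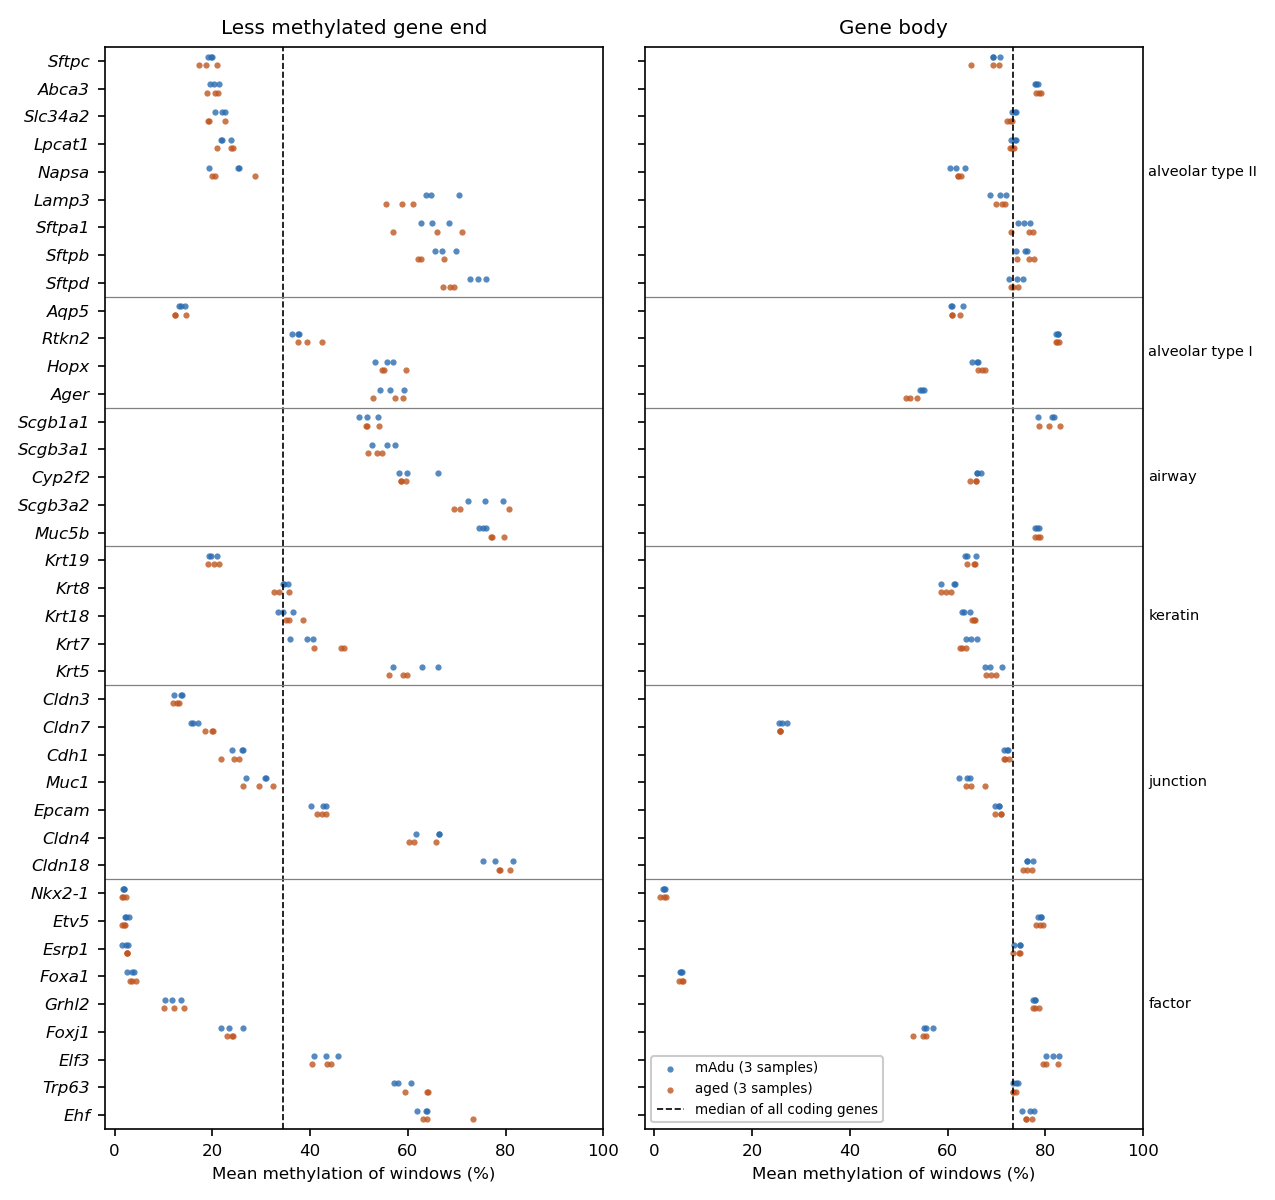
Methylation of the less methylated gene end (left) and of the gene body (right) for each member, in percent, with 1 point per sample (blue mAdu, orange aged) and the median of all coding genes as a dashed line. Points of a gene lie close together at both ages, ends run from 1.86% (Nkx2-1) to 78.9% (Cldn18), and most bodies lie near the dashed line while Nkx2-1, Foxa1 and Cldn7 stand far to its left.

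Starts ranged from 1.86% to 78.9%. The 4 lowest were those of Nkx2-1, the homeodomain factor that specifies lung and thyroid epithelium, Etv5, an ETS factor of alveolar type II cells downstream of FGF signalling, Foxa1, a forkhead pioneer factor of endoderm, and Cldn3, a tight junction protein. The 250 bases before an annotated start of each are shown, for comparison of their CG with the levels. For Foxa1 the RefSeq start lies 1918 bp inside the span, so its promoter is not read in the start value: the windows at the edge were at 3.53% and the window with the promoter at 1.52%. They are given 5′ to 3′ on the gene's own strand, from RefSeq on GRCm38.p6 (the coordinates of mm10), with every CG in capitals. They lie at chr12:56536909-56537158 (- strand) for Nkx2-1, chr16:22439571-22439820 (- strand) for Etv5, chr12:57546112-57546361 (- strand) for Foxa1, and chr5:134985964-134986213 (+ strand) for Cldn3.
Nkx2-1 promoter: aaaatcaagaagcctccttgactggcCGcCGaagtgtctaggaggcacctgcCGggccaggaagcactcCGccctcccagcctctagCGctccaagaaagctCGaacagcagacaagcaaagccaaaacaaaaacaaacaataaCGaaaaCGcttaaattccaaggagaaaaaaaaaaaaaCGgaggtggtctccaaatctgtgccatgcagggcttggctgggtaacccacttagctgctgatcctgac
Etv5 promoter: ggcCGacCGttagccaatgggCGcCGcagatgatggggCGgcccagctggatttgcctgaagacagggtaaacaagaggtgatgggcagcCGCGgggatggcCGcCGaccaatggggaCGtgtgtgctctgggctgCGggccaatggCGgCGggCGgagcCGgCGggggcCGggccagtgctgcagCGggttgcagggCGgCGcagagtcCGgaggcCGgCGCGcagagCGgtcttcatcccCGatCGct
Foxa1 promoter: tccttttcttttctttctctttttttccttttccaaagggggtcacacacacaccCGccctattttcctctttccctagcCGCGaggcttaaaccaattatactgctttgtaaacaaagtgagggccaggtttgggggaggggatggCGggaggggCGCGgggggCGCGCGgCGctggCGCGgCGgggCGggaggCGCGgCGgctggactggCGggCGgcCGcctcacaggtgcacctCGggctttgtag
Cldn3 promoter: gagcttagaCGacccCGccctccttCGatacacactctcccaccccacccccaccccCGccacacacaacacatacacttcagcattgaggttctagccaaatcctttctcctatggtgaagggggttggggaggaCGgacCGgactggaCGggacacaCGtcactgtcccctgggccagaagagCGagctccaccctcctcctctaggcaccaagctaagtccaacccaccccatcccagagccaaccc

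The Etv5 promoter holds 27 CG and the Foxa1 promoter 21, while those of Nkx2-1 and Cldn3 hold 9 each. At the start of Nkx2-1 the mAdu samples were at 1.63%, 1.97% and 1.86% and the aged samples at 1.80%, 1.53% and 2.37%. Etv5 was at 2.2%, 2.95% and 2.43% in mAdu and 1.95%, 2.06% and 1.61% in aged samples. The start of Cldn3 was at 12.2%, 13.8% and 13.7% in mAdu and 13.2%, 12.8% and 12.0% in aged samples, and at 26.7% over the 6 when read from 2000 bp outside to 1000 bp inside. All samples of both ages were low at these 3 starts, and the groups overlapped at Nkx2-1 and Cldn3. At Etv5 all aged samples lay below all mAdu samples, by less than 1 point.

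The 4 highest starts were those of Cldn18, the claudin of alveolar epithelium, Sftpa1, surfactant protein A, Cldn4, a claudin of many epithelia, and Cyp2f2, a cytochrome P450 of club cells. Their promoters are shown in the same way, for comparison with the low starts. They lie at chr9:99717268-99717517 (- strand) for Cldn18, chr14:41131538-41131787 (+ strand) for Sftpa1, chr5:134946935-134947184 (- strand) for Cldn4, and chr7:27119705-27119954 (+ strand) for Cyp2f2.
Cldn18 promoter: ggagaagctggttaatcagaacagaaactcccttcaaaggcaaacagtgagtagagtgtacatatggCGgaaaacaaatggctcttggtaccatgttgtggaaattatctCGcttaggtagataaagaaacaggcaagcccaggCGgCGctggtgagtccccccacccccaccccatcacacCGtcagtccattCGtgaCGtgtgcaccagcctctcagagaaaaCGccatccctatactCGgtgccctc
Sftpa1 promoter: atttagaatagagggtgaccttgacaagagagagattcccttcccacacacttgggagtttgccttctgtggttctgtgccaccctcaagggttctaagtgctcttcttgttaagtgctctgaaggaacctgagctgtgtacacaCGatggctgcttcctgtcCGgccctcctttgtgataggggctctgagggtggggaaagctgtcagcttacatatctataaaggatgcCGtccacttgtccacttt
Cldn4 promoter: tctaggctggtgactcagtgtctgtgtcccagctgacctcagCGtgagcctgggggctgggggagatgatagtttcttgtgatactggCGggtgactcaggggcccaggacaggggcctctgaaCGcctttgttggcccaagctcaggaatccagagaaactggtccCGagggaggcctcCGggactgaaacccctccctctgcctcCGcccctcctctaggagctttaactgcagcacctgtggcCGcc
Cyp2f2 promoter: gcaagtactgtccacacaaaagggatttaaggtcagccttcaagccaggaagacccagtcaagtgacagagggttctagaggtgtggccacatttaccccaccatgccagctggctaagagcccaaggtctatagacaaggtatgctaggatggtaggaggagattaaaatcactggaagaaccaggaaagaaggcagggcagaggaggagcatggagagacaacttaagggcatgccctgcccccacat

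The Cyp2f2 promoter holds 0 CG and that of Sftpa1 holds 3, while those of Cldn4 and Cldn18 hold 7 and 9. The start of Cldn18 was at 81.5%, 77.8% and 75.5% in mAdu, against 78.9%, 80.9% and 78.7% in aged samples. That of Sftpa1 was at 76.3%, 78.9% and 79.7% and at 77.9%, 78.9% and 79.0%. The single window with the Sftpa1 promoter was lower, at 61.8%. At both starts every sample was high and the groups overlapped. The starts of Cldn4 and Cyp2f2 stood at 68.0% and 67.8% over the 6 samples. Cldn3 and Cldn4, claudins that lie near each other on chromosome 5 (134986214 to 134987476 and 134945123 to 134946934), thus had starts at 12.9% and 68.0%.

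**Figure D2:**
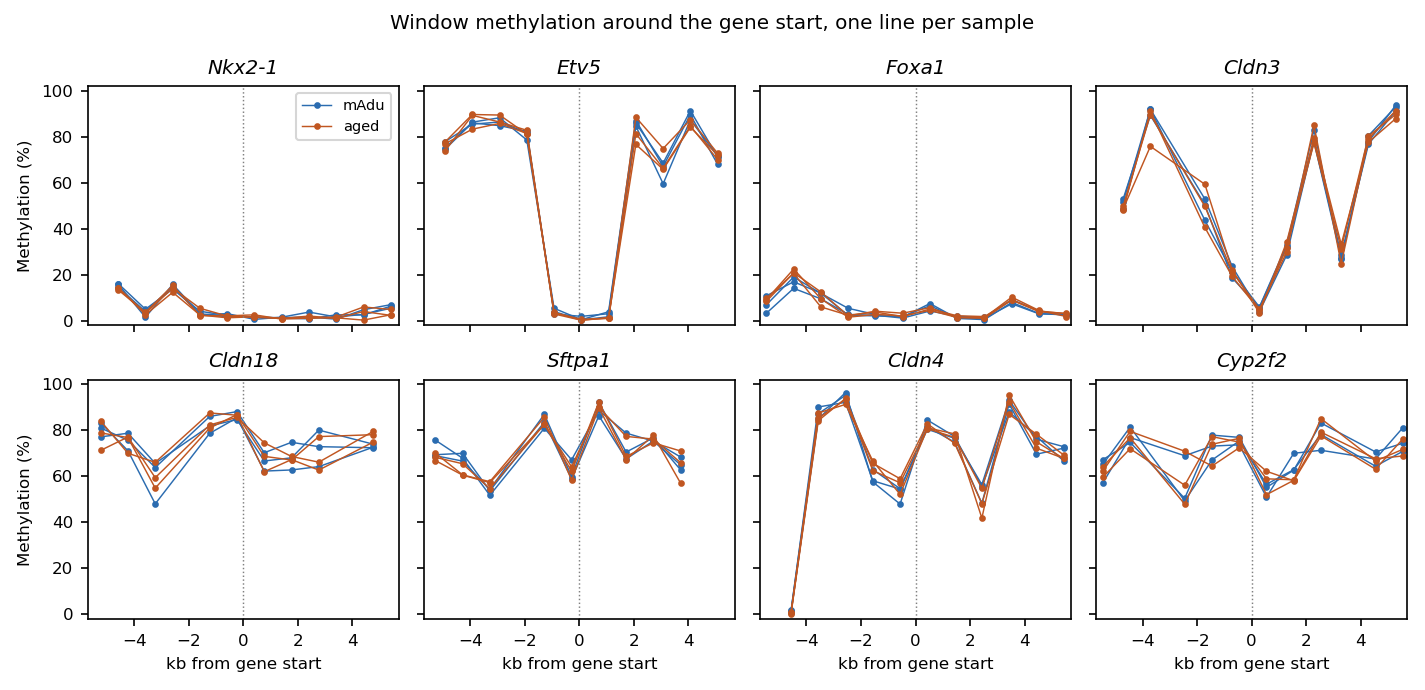
Methylation in percent of the 1000-bp windows around the gene start (kb from the start, transcription running to the right) for the 4 members with the lowest (top row) and the 4 with the highest starts (bottom row), with 1 line per sample (blue mAdu, orange aged). Nkx2-1 and Foxa1 are low over the whole range shown, Etv5 and Cldn3 dip most deeply at the start, and the bottom genes are high there. The low window on the left of the Cldn4 panel lies upstream of that gene.

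Nkx2-1 and Foxa1 were the only members with a locus level under 20%. Their loci stood at 7.91% and 6.27%, their bodies at 1.89% and 5.46%. The body of Nkx2-1 was at 2.01%, 1.75% and 2.08% in mAdu and 1.93%, 1.14% and 2.42% in aged samples, and that of Foxa1 between 5.10% and 5.87% in all 6. Runs of adjoining windows that each had a mean under 20% reached from chr12:56528001-56542000 at Nkx2-1 (14 windows) and from chr12:57534001-57554000 at Foxa1 (20 windows). The median length of the 29700 such runs on the autosomes was 1 window, and 74 runs (0.249%) were at least as long as that at Nkx2-1 and 28 (0.0943%) as that at Foxa1. The other factors did not share this form. Etv5 and Esrp1, a splicing regulator of epithelial cells, had ends at 2.2% and 2.38% but bodies at 78.9% and 74.3%, with runs of 3 and 5 windows. Grhl2, a grainyhead factor that keeps up epithelial adhesion genes, had an end at 12.0%, a run of 3 windows and a body at 77.8%.

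The remaining factors had higher ends. Foxj1, the master factor of ciliated cells, had an end at 23.8% that held a run of 2 windows at 5.06% ± 0.153 (SD, n = 3) in mAdu and 5.18% ± 0.854 (SD, n = 3) in aged samples. Elf3, an ETS factor of epithelia, had a start at 43.0% and the highest body of the class, at 81.1%. Ehf, a related ETS factor, and Trp63, the p53 relative of basal cells, had ends at 65.0% and 60.5%. The end of Ehf was at 61.9%, 63.8% and 64.0% in mAdu, against 63.0%, 73.3% and 64.0% in aged samples, with aged replicate 2 apart from the other 5 samples. Only 1 edge of Ehf had windows, so the other could not be read.

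Among the genes of alveolar type II cells, 5 ends lay near 20% and 4 above 60%. The low ends were those of Sftpc (19.3%), Abca3 (20.3%), Slc34a2 (21.0%), Lpcat1 (22.8%) and Napsa (23.2%): surfactant protein C, the lamellar body lipid transporter, a phosphate transporter, a lysophosphatidylcholine acyltransferase of surfactant lipid synthesis and an aspartic protease of surfactant protein processing. The high ends were those of Lamp3, a lamellar body membrane protein (62.4%), Sftpa1 (65.0%), Sftpb (65.8%) and Sftpd (71.4%), the last 3 being surfactant proteins. The ends of Abca3, Slc34a2 and Lpcat1 are also their starts. For Sftpc, Napsa and Sftpd the strand was not known, and their other edges were at 72.2%, 58.9% and 71.7%. The Sftpc end was at 19.8%, 19% and 20.02% in mAdu, against 18.7%, 17.2% and 20.9% in aged samples. From 2000 bp outside to 1000 bp inside it was at 33.6%. Of the 3 windows at this end, 2 form a run (chr14:70519001-70521000) at 2.52% ± 0.341 in mAdu and 2.36% ± 0.861 in aged samples (SD, n = 3 each). Most of this run lies outside the Sftpc span, which begins at 70520941. The lowest window, at 1.005%, is in the run and also lies in Bmp1, a neighbouring coding gene, and its level cannot be assigned to either gene. The lowest windows of the Abca3, Napsa and Ager loci lie in other coding genes as well. Bodies of the class ran from 62.1% in Napsa to 78.4% in Abca3. Napsa was at 63.6%, 61.7% and 60.5% in mAdu and 62.7%, 62.1% and 62.1% in aged samples, and Abca3 between 77.9% and 79.1% in all 6.

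The 4 genes of alveolar type I cells each had another form. Aqp5, a water channel, had a start at 13.2%, 14.4% and 13.5% in mAdu, against 12.4%, 14.6% and 12.3% in aged samples, low in all 6 and overlapping. From 2000 bp outside to 1000 bp inside the Aqp5 start was at 28.9%. Rtkn2 had an end at 38.5% and the most methylated body of all members, at 82.5%. Ager, the receptor for advanced glycation end products, had a start at 56.5% and a body at 53.6%. The locus of Ager was the lowest after those of Nkx2-1 and Foxa1, at 44.0%, in a stretch of chromosome 17 shared with the coding genes Pbx2, Rnf5 and Agpat1. Hopx, an atypical homeodomain protein, had a start at 65.8% (65.5%, 64.9% and 65.1% in mAdu, 67.0%, 65.4% and 67.1% in aged samples). The window over the 250 bases before this start, which hold 8 CG, was at 36.7% ± 1.5 in mAdu and 36.9% ± 2.34 in aged samples. A further RefSeq start lies inside the Hopx span. The window over the 250 bases before it, which hold 18 CG, was at 13.4% ± 0.280 in mAdu and 12.7% ± 1.81 in aged samples (SD, n = 3 each).

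The airway genes had the highest median end of the classes, and none was under 20%. Scgb1a1, the club cell secretoglobin, was lowest on this width, with an end at 53.9%, 50.02% and 51.6% in mAdu, against 51.7%, 51.4% and 54.1% in aged samples. From 500 bp outside to 500 bp inside, the less methylated edge of Scgb1a1 was the other one, at 76.8%. From 2000 bp outside to 1000 bp inside, the less methylated edge was at 60.6%. Scgb3a1 and Scgb3a2, further secretoglobins, had ends at 54.4% and 74.7%, and Cyp2f2 at 60.2%. Muc5b, a secreted mucin of the airways, was highest, with an end at 74.7%, 75.3% and 76.0% in mAdu, against 79.7%, 77.0% and 77.3% in aged samples, each aged value above each mAdu value. Bodies were read for 3 of the 5, with Cyp2f2 at 65.8%, Muc5b at 78.3% and Scgb1a1 at 80.6%. Scgb3a2 rests on 5 windows of the 14 its locus could hold.

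The keratins, which form the intermediate filaments of epithelial cells, had intermediate ends and bodies between 60.1% and 69.0%. Krt19 was lowest, with an end at 19.8%, 20.9% and 19.3% in mAdu and 19.1%, 20.4% and 21.4% in aged samples, and at 38.2% over the 6 when read from 2000 bp outside to 1000 bp inside. Krt8 and Krt18, the pairing keratins of simple epithelia that neighbour each other on chromosome 15, had starts at 34.4% and 35.6%. The lowest windows at these starts were at 7.59% and 8.09%, next to more methylated ones. Krt7, another keratin of simple epithelia, had a start at 41.7% and Krt5, of basal cells, at 63.7%. The start of Krt5 was at 63.9%, 65.3% and 62.2% in mAdu, against 65.2%, 63.5% and 62.0% in aged samples, which overlapped. Of the windows at the keratin loci, 80.5% lay between 20% and 80%, against 52.3% at all member loci. The share was 53.1% of all windows, which include those far from genes.

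The junction and surface genes spanned the widest range of ends, from 12.9% in Cldn3 to 78.9% in Cldn18. Cldn7, a further claudin, had an end at 17.9%, Cdh1, the gene of E-cadherin, at 24.7%, Muc1, a transmembrane mucin, at 29.5%, and Epcam, an epithelial adhesion molecule, at 42.2%. Cldn7 had the lowest body after Nkx2-1 and Foxa1, at 27.1%, 26.0% and 25.4% in mAdu and 25.7%, 25.7% and 25.8% in aged samples. This body holds 3 windows, and its low part is a run of 2 windows at chr11:69965001-69967000 with 4.18% ± 0.801 in mAdu and 4.33% ± 0.372 in aged samples (SD, n = 3 each). The body of Cldn18, the highest of the class, was at 77.4%, 76.2% and 76.2% in mAdu and 76.2%, 77.2% and 75.5% in aged samples. Cldn18 is known for lung and stomach forms that begin at different first exons. The windows over both RefSeq promoters of the gene were methylated, at 86.2% and 73.8% over the 6 samples.

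Windows under 20% made up 6.90% of the windows at member loci and 2.89% of all windows. Of these 91 windows, 33 lay at Nkx2-1 and Foxa1, and without both genes the share was 4.52%. In all, 28 members had at least 1 such window and 11 had none, and 62 of the 91 lay within 1000 bp of a gene edge in the annotation. Of the 91, 23 lay in another coding gene, and outside such genes the share was 5.49%. Windows above 80% made up 40.8% at member loci and 44.0% of all windows. All windows include those far from genes, while member loci are gene spans with flanks. No share over the loci of all coding genes was computed, nor the share of genes with a window under 20%. At ends, 23.1% of the members and 28.5% of all coding genes were under 20%.

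Promoters with more CG were less methylated among the members, as they were among all genes. RefSeq promoters with a window were found for 24 members, which had 28 in all, and a pattern search for the letters CG (the same on both strands) found it in 27 of them (95.6% of all 29128 promoters of the same length hold it). Their median was 8.5 CG in 250 bases (range 0 to 38), against 7 over all promoters. At least 20 CG were held by 5 of the 28, against 19.9% of all. Across the 24 genes, level and number of CG were related with Pearson's r of -0.662 and Spearman's rho of -0.738, given as a description, since genes are not independent and share the same libraries. Over all promoters the values were -0.688 and -0.742. In the 5 members' promoters with 20 CG or more (Etv5, Foxa1, Abca3, Slc34a2 and Aqp5) the levels ran from 0.660% to 13.4%.

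Promoters were also set beside others of like CG content. By definition, 1 in 4 of all promoters of a range lie beyond each quartile. Above the upper quartile of their range of CG lay 0 of 3 member promoters with 0 to 2 CG, 0 of 4 with 3 to 5 and 2 of 10 with 6 to 9. Above it also lay 1 of 2 with 10 to 14, 3 of 4 with 15 to 19 and 2 of 5 with 20 or more. Below the lower quartile lay 0 of 3 with 0 to 2 CG, 3 of 4 with 3 to 5 and 1 of 10 with 6 to 9. Below it also lay 0 of 2 with 10 to 14, 0 of 4 with 15 to 19 and 1 of 5 with 20 or more. Among promoters with 6 to 9 CG, the middle of the distribution ran from 7.42% to 70.8% (lower to upper quartile), and Nkx2-1 at 1.86% lay below it while Cldn18 at 86.2% lay above it. Aqp5, with 38 CG the member promoter richest in CG, was at 13.4%, and Slc34a2, with 28 CG, at 8.15%, both above the upper quartile of 4.11% for 20 CG or more. The Krt7 promoter, with 16 CG, was at 28.7%, against an upper quartile of 8.64% for 15 to 19 CG. Muc1, with 3 CG, was at 29.5%, below the lower quartile of 41.2% for 3 to 5 CG. These windows reach beyond the 250 bases in which CG was counted.

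**Figure D3:**
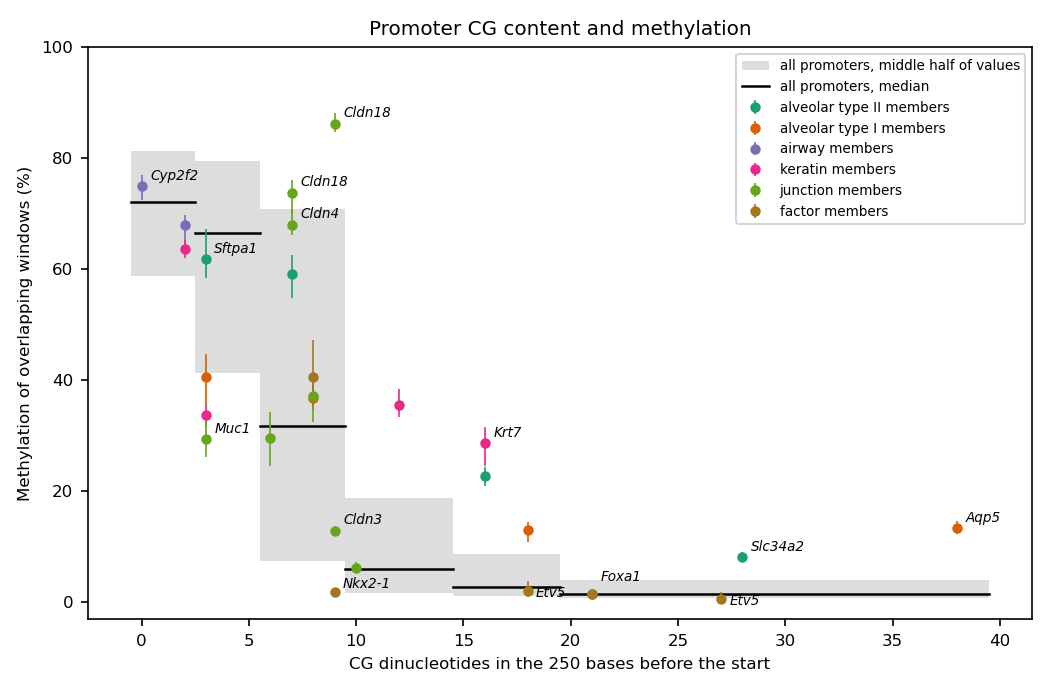
Methylation in percent of the windows over a RefSeq promoter against the number of CG in its 250 bases, with 1 point per member promoter (mean of 6 samples, bars from the lowest to the highest sample, colours by class) over the median (black) and the lower to upper quartile (grey) of all promoters. Member promoters fall from Cyp2f2 at 75% with 0 CG to Etv5 at 0.660% with 27 CG, while Cldn18 lies above the grey range and Nkx2-1 below it at the same 9 CG.

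Inside the genes, away from annotated starts and edges, low windows were few. Of 740 windows that lay inside a member's span, at least 2000 bp from every annotated edge or start and in no other coding gene, 36 (4.86%) had a mean under 50%, spread over 14 members. Over all coding genes the share was 7.39% of 635172 windows. The lowest outside Foxa1 was a window in Hopx (chr5:77110001-77111000), at 17.4% ± 5.65 in mAdu and 17.7% ± 3.49 in aged samples (SD, n = 3 here and for the next windows). A window in Lpcat1 (chr13:73500001-73501000) was at 18.7% ± 1.83 and 18.8% ± 2.96. In Trp63 the lowest (chr16:25744001-25745000) was at 20.3% ± 1.63 and 23.5% ± 2.96, and in Ehf (chr2:103282001-103283000) at 26.9% ± 0.829 and 23.0% ± 1.95. Cdh1 and Trp63 each held 6 such windows, the most of any member. Slc34a2, Cldn18, Muc5b and Esrp1 held 0 among 13 to 48 interior windows.

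The Cdh1 window at chr8:106635001-106636000, centred 32.2 kb from the gene edge with the lower coordinate, was the deepest of the 6 in E-cadherin. It was at 19.9%, 18.4% and 16.0% in mAdu, against 27.3%, 25.9% and 23.2% in aged samples, in a body at 72.0%. Whether these stretches hold regulatory elements was not measured, since no other readout of the samples was analysed here.

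**Figure D4:**
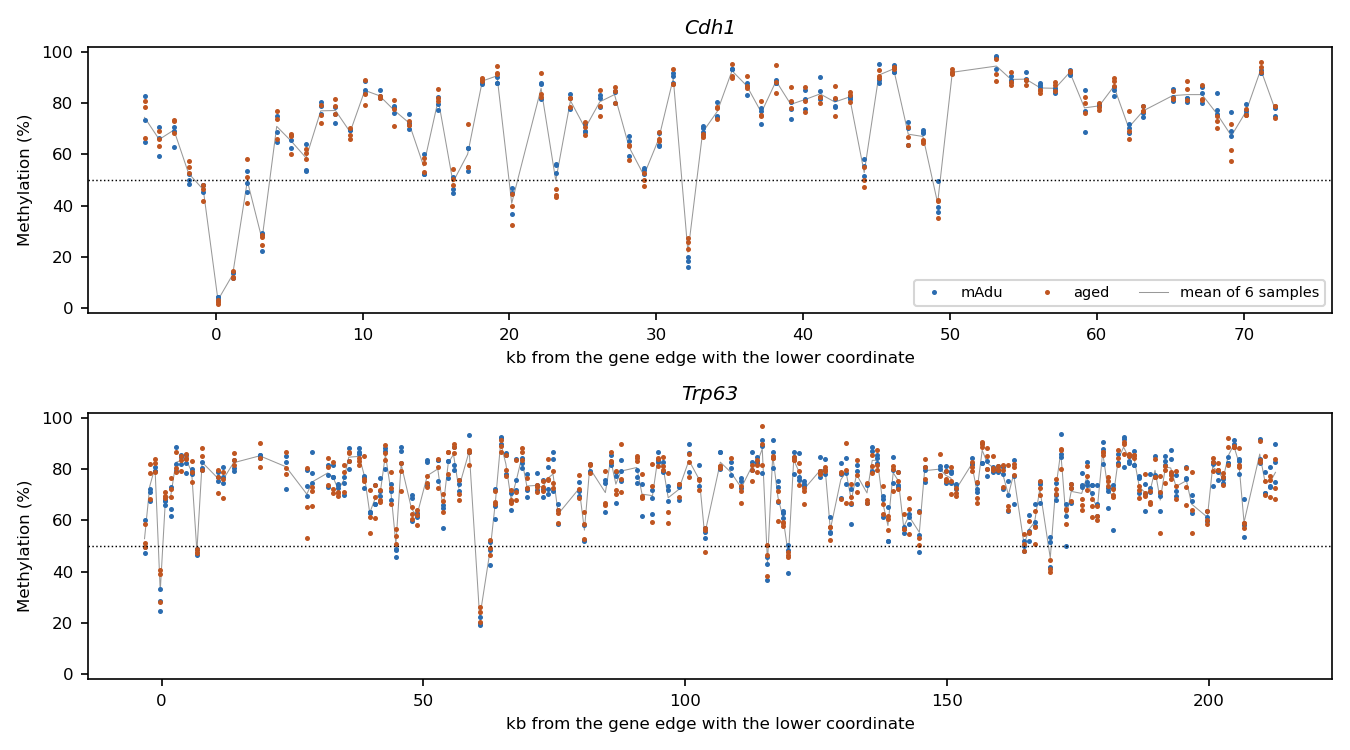
Methylation in percent of every 1000-bp window along Cdh1 (top) and Trp63 (bottom), by distance in kb from the gene edge with the lower coordinate, with 1 point per sample (blue mAdu, orange aged), a grey line for the mean of 6 samples and a dotted line at 50%. In both genes most windows lie above the dotted line, and narrow dips reach 21.8% in Cdh1 and 21.9% in Trp63 far from the edges.

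The comparison of 18-month with 8-month endothelium asked whether methylation of these genes differed with age. No member passed limma's test (adjusted p under 0.05) at its locus (0 of 39), end (0 of 39), start (0 of 25) or body (0 of 35), nor did any of the 1318 windows. The same test called 0% of all loci and of all ends, 0.0189% of starts, 0.0171% of bodies and 0.0211% of windows, so almost no gene passed it anywhere. An unadjusted p under 0.05 was reached by 4 of 39 member loci, 4 of 39 ends, 3 of 25 starts, 2 of 35 bodies and 46 of 1318 windows. The same holds for 4.82% of all loci, 4.94% of ends, 4.72% of starts, 4.97% of bodies and 4.67% of windows. Groups without overlap were seen at 1 member locus with aged samples higher (4.52% of all loci) and 4 with aged samples lower (5.62%), and at 3 member ends in each direction (5.1% and 4.97% of all ends). Of the starts, 2 were higher (4.81% of all starts) and 2 lower (4.95%), and of the bodies 1 was higher (4.63% of all bodies) and 3 were lower (5.41%). In either direction, 10.1% of all loci, 10.1% of ends, 9.76% of starts and 10% of bodies had no overlap.

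The intervals of the differences were narrower at bodies and loci than at ends and starts. At bodies 34 of 35 members, and at loci 38 of 39, had a 95% interval of the difference within 5 points of 0. At ends this held for 20 of 39 and at starts for 16 of 25, and the intervals of the others reached beyond 5 points. The aged mean was the lower at 25 of 39 loci, 22 of 39 ends, 13 of 25 starts and 21 of 35 bodies. The share with a higher aged mean was 35.9% of member loci and 46.7% of all loci. These majorities hang on single samples: without aged replicate 2 the aged mean was the lower at 19 of 39 loci and 17 of 35 bodies, and without aged replicate 1 at 18 of 39 ends, 12 of 25 starts and 17 of 35 bodies. Without mAdu replicate 1 it was the lower at 17 of 35 bodies, and without mAdu replicate 3 at 11 of 25 starts. The median difference over members was -0.231 points at loci and -0.116 points at bodies, against -0.0495 and -0.0392 over all genes. Its sign also rests on single samples: without aged replicate 2 it was 0.0182 at loci and 0.0112 at bodies, and at bodies 0.00254 without mAdu replicate 1 and 0.0704 without aged replicate 1. At loci it was -0.0511 without mAdu replicate 1.

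**Figure D5:**
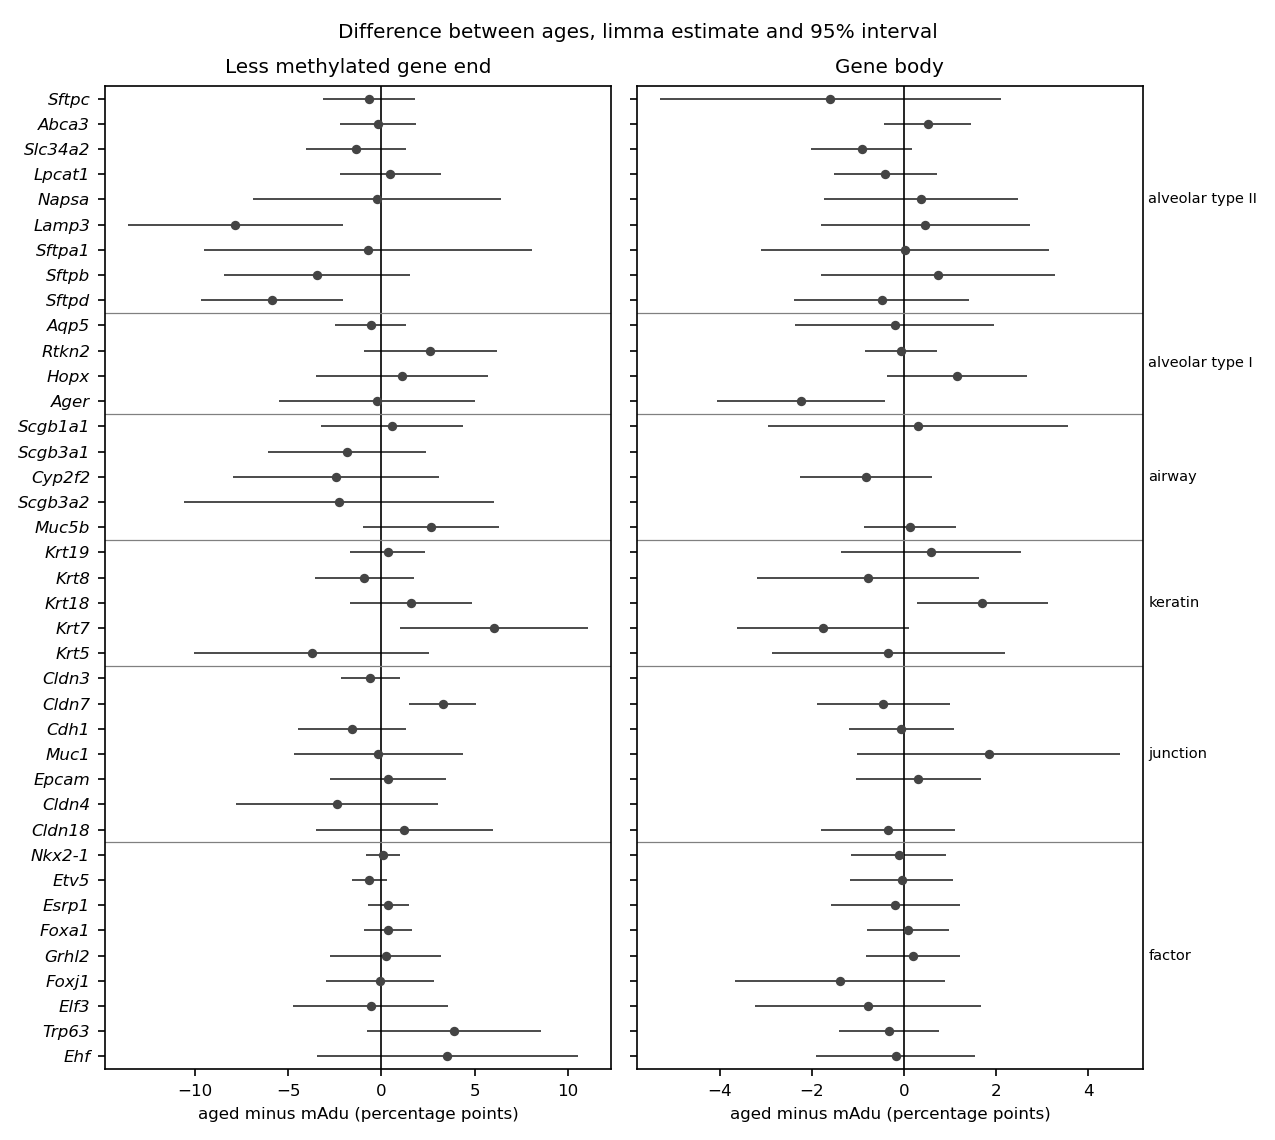
Difference between the aged and the mAdu mean in percentage points for the less methylated end (left) and the body (right) of each member, with the 95% interval of the limma fit across all genes. Most intervals include 0, the largest differences are at the ends of Lamp3 (-7.83), Krt7 (6.05) and Sftpd (-5.87), and those of bodies stay within 2.24 points on an axis of smaller range.

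At gene ends the smallest p belonged to Cldn7. Its end, which is also its start, was at 16.0%, 15.7% and 17.1% in mAdu, against 18.4%, 20.2% and 20% in aged samples. Each aged sample lay above each mAdu sample, with a difference of 3.29 points (SE 0.752, limma adjusted p = 0.892), and the locus of Cldn7 was 1.59 points higher. The end of Sftpd was at 72.7%, 75.9% and 74.3% in mAdu, against 68.6%, 69.5% and 67.2% in aged samples. The groups did not overlap (-5.87 points, SE 1.60, limma adjusted p = 0.935). The less methylated edge was chosen anew at each width, and both edges of Sftpd stood close, at 71.4% and 71.7%. From 500 bp outside to 500 bp inside it was the other edge, which differed by -0.489 points, so it is not a narrower reading of this end. From 2000 bp outside to 1000 bp inside the difference was -2.97 points, at whichever edge was then lower. The end of Lamp3, a single window, was at 70.4%, 63.8% and 64.8% and at 58.9%, 61% and 55.6%, again without overlap (-7.83 points, SE 2.41, limma adjusted p = 0.958). None of the 3 passed. After Krt7, described next, Trp63 and Rtkn2 followed with aged means 3.88 and 2.61 points higher and groups that overlapped. The Rtkn2 difference was 1.26 without aged replicate 2 and 1.21 from 500 bp outside to 500 bp inside.

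Krt7 differed in direction between its parts, though no part passed. Its start was at 40.7%, 39.3% and 35.9% in mAdu, against 46.4%, 40.8% and 46.8% in aged samples, 6.05 points higher in the aged group, and 2.56 points higher when read from 2000 bp outside to 1000 bp inside. Its locus was at 68.3%, 68.1% and 67.9% in mAdu, against 66.5%, 65.8% and 67.5% in aged samples, 1.5 points lower. Neither pair of groups overlapped, and the limma adjusted p was 0.972 at the start and 0.980 at the locus. Of the starts, those of Sftpb (-3.45 points), Etv5 (-0.650) and Slc34a2 (-1.36) came next, each with a limma adjusted p of 0.972. Slc34a2 ran from -2.46 without aged replicate 2 to -0.784 without aged replicate 1, with -0.846 without aged replicate 3. Sftpb was at -2.29 without mAdu replicate 1 and at -2.15 from 2000 bp outside to 1000 bp inside.

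The aged mean was the lower at 8 of the 9 alveolar type II ends, the exception being Lpcat1 at 0.475 points higher. Lamp3 (-7.83 points, 1 window) and Sftpd (-5.87 points) differed most, followed by Sftpb (-3.45 points). The other edge of Sftpd, read from 500 bp outside to 500 bp inside, differed by -0.489 points. The mean over the 9 ends was 43.7%, 41.5% and 41.8% in mAdu and 39.2%, 41.0% and 40.2% in aged samples, and the groups did not overlap. Class means of the ends also lacked overlap in the other direction among the keratins, from 37.7% to 38.27% in mAdu and from 38.28% to 39.1% in aged samples, and in the mesenchymal list, from 32.4% to 33.0% and from 33.1% to 34.2%. The aged mean was the higher at 50.9% of the ends of all coding genes. No type II end passed, the 9 share the same 6 samples, and the aged mean was the higher at 5 of the 9 bodies. This class was singled out after its values were seen. The body of Ager had the smallest p of the bodies, at 55.1%, 54.3% and 54.8% in mAdu and 52.4%, 53.7% and 51.5% in aged samples (-2.24 points, SE 0.748, limma adjusted p = 0.953). The body of Krt18 was 1.70 points higher in aged samples, without overlap, and those of Krt7, Slc34a2, Hopx and Muc1 followed at -1.76, -0.923, 1.15 and 1.84 points. Without aged replicate 3 the Muc1 body was at 0.697 and the Hopx body at 0.754 points, without mAdu replicate 3 Muc1 was at 1.18, and without mAdu replicate 1 Krt7 was at -1.16.

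Nkx2-1 gave the smallest p of the loci. The locus was at 8.505%, 8.05% and 8.99% in mAdu, against 7.36%, 7.21% and 7.38% in aged samples. All aged samples lay below all mAdu samples, by 1.2 points on average (SE 0.323, limma adjusted p = 0.961). With flanks of 2000 bp the difference was -0.333 points and without flanks -0.590. The run of 14 windows under 20% was at 4.66% ± 0.0772 in mAdu and 4.15% ± 0.365 in aged samples (SD, n = 3 each). The locus also holds 2 windows between 20% and 80%. The body and the start of Nkx2-1 differed by -0.116 and 0.0798 points. Scgb3a2, Slc34a2 and Hopx were the other loci with the smallest p, at -3.84, -0.829 and 0.945 points. They were at -2.46 without mAdu replicate 2, -0.552 without aged replicate 1 and 0.603 without aged replicate 3.

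Among the windows, 663 had a higher and 655 a lower aged mean, with a median difference of 0.0166 points, and groups without overlap were seen in 71 upward and 72 downward (4.75% and 5.28% of all windows). The smallest adjusted p was 0.978. The Cdh1 window at 32.2 kb had the smallest p of those higher in aged samples, at 18.1% ± 1.98 in mAdu and 25.4% ± 2.09 in aged samples (SD, n = 3 each). Another window of Cdh1, at chr8:106626001-106627000, had the smallest p of those lower, at 55.0% ± 1.98 and 44.6% ± 1.60. Both lie in a gene body whose aged and mAdu means differed by -0.0628 points. A window of Slc34a2 (chr5:53066001-53067000) was at 76.7% ± 5.10 and 65.3% ± 1.89, and a window of Sftpa1 outside its span (chr14:41138001-41139000) at 68.6% ± 2.88 and 79.2% ± 6.34. The difference of the Sftpa1 window was 10.6 points, and 6.98 without aged replicate 3. The window of Nkx2-1 at chr12:56531001-56532000 was at 6.27% ± 0.789 and 3.30% ± 1.42. The other windows named by the rule lay in Trp63 (1 higher, 1 lower), Cldn7 and Rtkn2 (higher), in Lamp3 and Sftpb (lower), and in the flank of Foxa1 inside another coding gene, Ttc6 (higher), and none passed.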

How the data were processed

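Tagmentation-based whole-genome bisulfite sequencing was run on 30 ng of DNA per sample, per the labels' protocols, and BWA 0.7.8 and mm10 are named in the submitters' processing notes. No CpG caller, coverage filter or smoothing step is stated in those sources. The deposited table gives each of 1684140 windows of 1000 bp on 19 autosomes a methylation fraction (0 to 1) per sample, averaged by the authors, and no coverage, so depth is unknown. Fractions were multiplied by 100, and only windows complete in the 6 samples were used. Regions are unweighted means of overlapping windows. Age groups were compared by limma 3.58.1 (R 4.3.3), fitted to percent values of all features of a kind with a term for age group and a trended prior variance, and p-values were adjusted by Benjamini-Hochberg (threshold 0.05). Starts and sequences came from a RefSeq promoter table, which had no entry for 14 members. Members and lists were chosen with earlier results of these data known. Named with full values were the lowest and highest member of each class, the 6 members per region with the smallest p, and the 6 windows with the smallest p in each direction. Of the genes listed for comparison, 1 was not on the autosomes. Alternatives covered the scale, the variance trend, extreme windows, flanks, widths, a replicate block and each sample left out.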

Additional observations from a re-analysis of the deposited data

How the results depend on the processing

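No member region and no window of the member loci passed the threshold under any alternative: the logit scale, no variance trend, no windows with extreme values (there were 0 at these loci), other flanks and widths, the replicate block, or any replicate left out (0 members each time). Over 399 refits of the 36 members and windows named for age, 0 changed direction and limma's adjusted p ran from 0.821 to 1. Many of these refits could not change direction. The variance trend, the block and the extreme windows left each difference as it was. Leaving out a sample cannot reverse groups without overlap, and these results were picked by their p, so the count does not measure stability. The median end of the members was 38.5%, with the less methylated edge chosen anew at each width. It was 29.5% when read from 500 bp outside to 500 bp inside the edge and 48.7% from 2000 bp outside to 1000 bp inside. The median start was 41.7%, and 35.6% and 48.9% on those widths. Read from 2000 bp inside each edge, 22 bodies had enough windows, and the aged mean was the lower at 12 of them. Medians of loci and bodies moved by less than the spread between samples when a sample was left out or windows with a value in any sample were used. These medians were not computed with other flanks or from 2000 bp inside each edge. With replicate number as a block 0 members passed, and over all windows 185 passed instead of 355. Deviations of same-numbered samples correlated between -0.0167 and -0.000645 over all windows, and those of all pairs across the groups between -0.0167 and 0.0202. Counting error can mask a shared origin in single windows, so this cannot decide whether the numbers pair the samples. Read depth, and with it the counting error of a window, is unknown, and ends of 1 to 3 windows are the least precise values. Lamp3 and Scgb3a2 had a value in 37.5% and 35.7% of their possible windows.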
